A study of Mus musculus with 33 samples.

Results

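The spindle checkpoint and the chromosomal passenger complex were followed through 10 genes in single heart cells of mice. The members were chosen by name: Bub1, Bub1b, Bub3, Mad2l1, Mad1l1 and Ttk for the checkpoint, and Aurkb, Incenp, Birc5 and Cdca8 for the passenger complex. All 10 were found among the 14862 gene rows of the count table. The cells came from heart ventricles of mice that carry mAG-hGem (Azami Green joined to geminin), part of the FUCCI reporter of cycling cells, and every group shares this transgene. Fluorescence sorting gave 10 positive and 11 negative cells at embryonic day 14.5 (E14.5), and 6 positive and 6 negative cells at postnatal day 5 (P5). Per the labels' protocols, a cell was accepted as a cardiomyocyte when PCR found Tnnt2 and did not find Pdgfrb. The labels name no animal, strain or sex, so each group was treated as 1 sample, and no difference given here could be checked against replicates.

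The spindle checkpoint holds a dividing cell in metaphase until every kinetochore is attached to the spindle. The kinase Ttk (MPS1) starts the signal at unattached kinetochores, Bub1 and Bub3 bind there, and Mad1l1 recruits Mad2l1, which joins Bub1b (BubR1) and Bub3 in the complex that inhibits Cdc20. The passenger complex consists of the kinase Aurkb and its scaffold Incenp, survivin (Birc5) and borealin (Cdca8). It releases faulty attachments at the centromere, moves to the spindle midzone at anaphase and acts again in cytokinesis, a step that many heart muscle cells of the newborn mouse leave out as they become binucleate.

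Totals ran from 2.55 to 38.5 M counts per cell, where 1 M is 1000000 counts. Markers of 5 cell types were read in each cell, 11 of them for cardiomyocytes and 6 for endothelial cells. Cardiomyocyte markers were the leading list in all 10 positive cells at E14.5 and in 10 of 11 negative ones, and in 5 of 6 positive but 0 of 6 negative cells at P5. Summed cardiomyocyte marker levels were 0.345 to 3287 CPM (counts per 1000000) in P5 negative cells, against at least 13220 CPM in every E14.5 cell. Summed endothelial marker levels were 298 to 13051 CPM in P5 negative cells, and at most 26.1 CPM in any E14.5 cell. Tnnt2 itself ranged from 0 to 128 CPM in P5 negative cells, which goes against their label. The P5 positive cell titled L2P12 also had endothelial markers ahead, with Tnnt2 at 7.24 CPM and Cdh5 at 343 CPM. The E14.5 negative cell N10 had fibroblast and mural markers ahead, with cardiomyocyte markers at 20981 CPM as well. Mouse Gmnn, which is not the reporter transgene, reached 135 CPM (positive) and 100.04 CPM (negative) at E14.5, and 138 CPM (positive) and 28.7 CPM (negative) at P5.

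Promoter sequences are shown first because genes of late cell cycle phases often carry a CHR element together with CCAAT boxes, and the 10 genes were read for these letters. RefSeq promoter windows of build GRCm38.p6, from 250 bases before to 50 bases after a start site, were found for 8 of the 10 genes. The motifs were TTTGAA and TTCGAA for the CHR, and CCAAT, each on both strands. A CHR was present in 5 of the 8 genes, namely Bub1, Bub1b, Bub3, Ttk and Cdca8, and in 19.2% of all 32851 windows. A CCAAT box was present in these 5 genes, and in 37.4% of all windows. Both motifs together were present in the 5 genes, and in 7.52% of all windows. An E2F site, searched as TTTCCCGC or TTTCGCGC or TTTGCCGC or TTTGGCGC, was in 0 of the 8 genes and in 2.26% of all windows. No CHR, CCAAT box or E2F site of these letters lay in the windows of Mad2l1, Mad1l1 and Birc5. The Mad2l1 window ends at chr6:66535270, before the GENCODE gene start at chr6:66535390, so the sequence around that start was not read. Aurkb and Incenp have no sequence here. A match describes the letters only.

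Stretches of 30 bases around the CHR of 4 of these genes follow, with the CHR in capitals, so that its place beside the start can be compared. Counted from 1 at the RefSeq start, the CHR began at base 15 in Bub1, 41 in Bub1b and 8 in Ttk. In Bub3 it began at base -43 from 1 RefSeq start and at base -167 from another. GENCODE starts the Bub3 gene at chr7:131560222, so this CHR lies inside the annotated gene. The stretches lie at chr2:127831828-127831857 (minus strand), chr2:118598231-118598260 (plus), chr9:83834684-83834713 (plus) and chr7:131560315-131560344 (plus). A further CHR of Bub1b, at base -188, is not shown.
Bub1: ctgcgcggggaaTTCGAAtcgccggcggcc
Bub1b: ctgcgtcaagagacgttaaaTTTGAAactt
Ttk: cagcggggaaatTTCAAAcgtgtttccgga
Bub3: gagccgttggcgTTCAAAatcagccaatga

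Upstream stretches of 120 bases are shown for 2 genes with CCAAT boxes (capitals, read on either strand) and 2 without any in the windows read. All 4 were at least 2-fold higher in E14.5 positive than negative cells. The same holds for Bub1b, Bub3 and Cdca8, which also have CCAAT boxes in their windows and whose upstream stretches are not shown. Bub1 is at chr2:127831866-127831985 (minus strand), Ttk at chr9:83834569-83834688 (plus), Birc5 at chr11:117849117-117849236 (plus) and Mad2l1 at chr6:66535101-66535220 (plus).
Bub1: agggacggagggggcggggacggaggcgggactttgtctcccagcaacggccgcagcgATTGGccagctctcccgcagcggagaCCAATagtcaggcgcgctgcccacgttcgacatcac
Ttk: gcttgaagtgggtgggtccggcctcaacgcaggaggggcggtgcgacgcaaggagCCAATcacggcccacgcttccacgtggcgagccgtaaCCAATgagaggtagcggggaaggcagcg
Birc5: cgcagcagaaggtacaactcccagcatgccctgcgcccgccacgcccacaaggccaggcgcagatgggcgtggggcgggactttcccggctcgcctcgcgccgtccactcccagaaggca
Mad2l1: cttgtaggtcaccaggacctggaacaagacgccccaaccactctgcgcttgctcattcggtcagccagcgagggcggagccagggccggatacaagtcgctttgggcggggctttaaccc

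The first comparison asked how the 10 genes differ between reporter-positive and reporter-negative cells before birth. In E14.5 cells, 9 of the 10 genes were at least 2-fold higher in positive cells, beside 22.4% of the 12633 gene rows with at least 10 counts. The exception was Mad1l1. The median log2 ratio of the 10 genes was 3.40, while that of all rows was -0.16. The 6 checkpoint genes had a median of 3.40 and the 4 passenger genes one of 3.37. In 0 of the 10 genes did every positive cell lie above every negative cell, beside 0.198% of all rows.

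A single E14.5 negative cell, N24, was high in nearly all members. It held at least 10 CPM of 9 of the 10 genes, and its summed level of the 10 was 1413 CPM, within the 427 to 3922 CPM of the positive cells. The other 10 negative cells had sums of 0.334 to 631 CPM. Without N24, an alternative added after the data were seen, the median log2 ratio was 5.35, beside -0.14 over all rows. In 4 of the 10 genes (Bub1, Ttk, Aurkb and Incenp) every positive cell then lay above every negative cell, beside 0.518% of all rows. N24 also had the highest S phase sum of the E14.5 cells, 18044 CPM over 18 genes, and the highest G2/M sum of the negative cells, 1851 CPM over 15 genes.

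**Figure D1:**
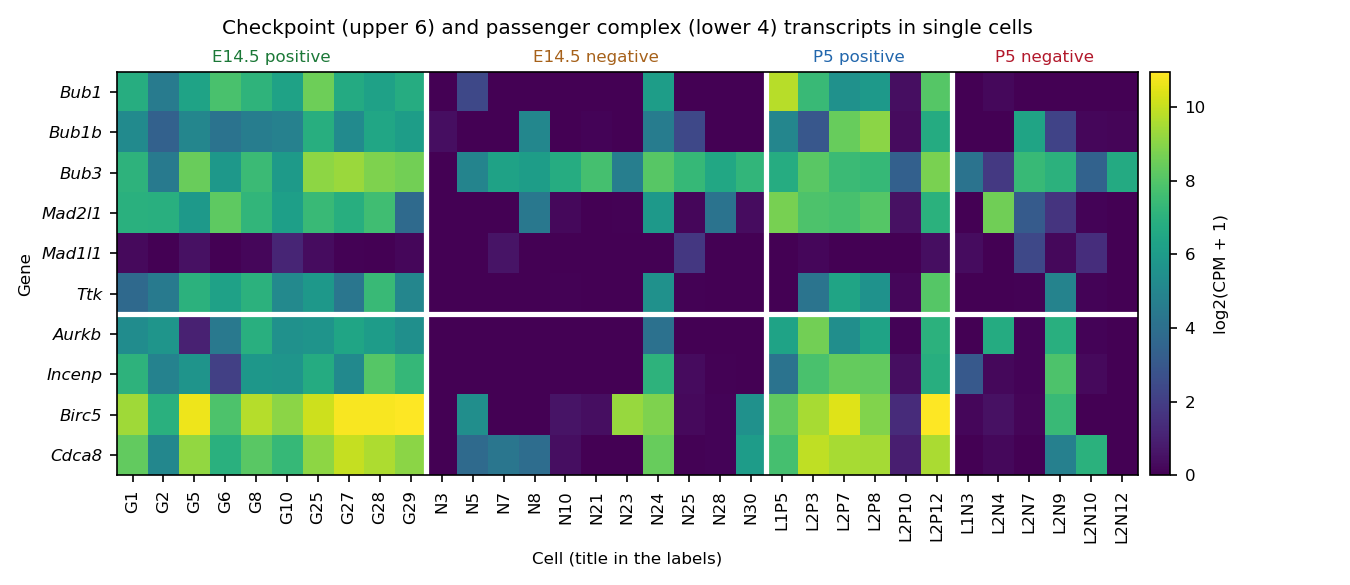
Heat map of log2(CPM + 1) for the 10 genes (rows) in each of the 33 cells (columns, by title), grouped by age and reporter. The E14.5 negative cell N24 and the P5 negative cell L2N9 are high in many rows, the P5 positive cell L2P10 is low in all rows, Bub3 is present in most cells and Mad1l1 is at most 4.12 CPM.

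The kinase that starts the checkpoint signal, Ttk (chr9:83834689-83872389, plus strand), had 12.4, 45.6 and 169 CPM as lowest, median and highest value of the E14.5 positive cells. The lowest, median and highest values of the E14.5 negative cells were 0, 0 and 45.3 CPM. The highest was N24, and 8 of the 11 negative cells had no read. In summed counts Ttk had 67.1 CPM among positive cells and 5.42 CPM among negative cells, a log2 ratio of 3.63 (95% counting interval 3.54 to 3.72). N24 held 99.8% of the negative group's Ttk counts. Without it 2 counts remained in the negative cells, and the log2 ratio was 12.50 (10.64 to 15.54).

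Bub1 (chr2:127801122-127831865, minus strand), the kinase that binds kinetochores and marks the centromere for shugoshin, had 22.6, 107 and 372 CPM as lowest, median and highest value of the E14.5 positive cells. All 10 of these cells held at least 10 CPM, and G25 was highest. Among the negative cells 9 of 11 had no read, N5 had 4.12 CPM and N24 had 67.2 CPM. The summed levels of 131 and 8.23 CPM gave a log2 ratio of 3.99 (3.92 to 4.07). Without N24 it was 9.01 (8.58 to 9.47), and no negative cell reached the lowest positive one.

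Bub1b (chr2:118598211-118641591, plus strand), the BubR1 subunit of the inhibitory complex, was lower than Bub1 in the summed counts per kilobase of exon, at 12.3 against 30.1 CPM per kb in E14.5 positive cells. Its lowest, median and highest E14.5 positive values were 9.64, 34.0 and 116 CPM. Of the 11 negative cells 6 had no read, but N8 had 32.4 CPM and N24 had 23.6 CPM. The groups overlapped, with 5 of 10 positive cells above the highest negative cell. The summed levels were 52.7 and 5.39 CPM, a log2 ratio of 3.29 (3.20 to 3.38), which was 4.18 (4.05 to 4.31) without N24 and 3.89 without N8.

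Bub3 (chr7:131560222-131571895, plus strand) binds the phosphorylated kinetochore scaffold and brings Bub1 and Bub1b with it. It was the member present most widely, with at least 10 CPM in all 10 positive and in 10 of the 11 negative E14.5 cells. The lowest, median and highest values were 21.1, 260 and 639 CPM in positive cells, and 0, 94.8 and 272 CPM in negative cells. Only N3 had no read of it among the negative cells, and 5 of 10 positive cells lay above all negative cells. The summed levels of 386 and 117 CPM gave a log2 ratio of 1.72 (1.70 to 1.74), the smallest of the 9 higher genes.

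Mad2l1 (chr6:66535390-66547220, plus strand), the MAD2 subunit that changes shape when it is loaded onto Mad1, had 12.9, 121 and 301 CPM as lowest, median and highest value of the E14.5 positive cells. The lowest was G29, which had the highest Birc5 value, and the highest was G6. The negative cells had a lowest, median and highest value of 0, 0.133 and 57.9 CPM, and 3 of the 11 (N8, N24 and N28) held at least 10 CPM. The summed levels of 128 and 11.2 CPM gave a log2 ratio of 3.51 (3.44 to 3.57). N24 held 61.4% of the negative counts, and without it the log2 ratio was 4.699 (4.5995 to 4.7996). A processed pseudogene, Gm42430, matches 454 bases of the Mad2l1 transcript at 95.4% identity, so some reads could belong to either. No other member had a gene this similar over at least 200 bases.

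Mad1l1 (chr5:140008689-140321552, minus strand) encodes MAD1, the kinetochore anchor of MAD2, and was barely detected. It had 30 reads in all E14.5 positive cells together and 58 in all E14.5 negative cells, or 0.190 and 0.297 CPM. The highest single values were 12 reads in the positive cell G10 and 54 reads in the negative cell N25. The log2 ratio of -0.64 had an interval of -1.33 to 0.02, so no difference was detectable with so few reads. N25 held 93.1% of the negative counts, and without this cell the log2 ratio, with 0.5 count added to each side, turned to 2.89. Without G10, which held 40.0% of the positive counts, it was -1.29 (-2.14 to -0.502). An antisense gene covers 37 of its exon bases, and the strand setting of the counting is not given in the sources used here.

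Among the passenger genes, the kinase gene Aurkb (chr11:69045647-69051664, plus strand) had the largest ratio of the 10 genes. Its lowest, median and highest E14.5 positive values were 1.04, 47.6 and 118 CPM, with G5 the lowest and the next cell at 20.4 CPM. N24, at 16.2 CPM, was the only one of the 11 negative cells with any read. The summed levels were 60.4 and 1.93 CPM, a log2 ratio of 4.97 (4.82 to 5.12). With N24 left out Aurkb was at least 3466-fold higher in positive cells, taking 3 counts over the group as the limit of 0 counts. This bound does not cover the spread between cells.

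Incenp (chr19:9872296-9899551, minus strand), the scaffold that activates Aurkb, had 3.23, 53.7 and 268 CPM as lowest, median and highest value of the E14.5 positive cells. G6 was lowest and G28 highest. N24, with 136 CPM, was above 8 of the 10 positive cells, whereas 8 of the 11 negative cells had no read and the remaining pair stayed below 1 CPM. The summed levels of 101 and 16.3 CPM gave a log2 ratio of 2.63 (2.57 to 2.68), and 11.08 (10.10 to 12.30) without N24.

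Birc5 (chr11:117849251-117855743, plus strand), or survivin, gave the most counts. Its lowest, median and highest values were 123, 980 and 1988 CPM in E14.5 positive cells, and 0, 0.322 and 606 CPM in E14.5 negative cells. The highest negative cell was N23, where Birc5 and Bub3 were the only members with at least 10 CPM, and N24 followed at 455 CPM. The summed levels of 1358 and 153 CPM gave a log2 ratio of 3.15 (3.13 to 3.17). N23 held 60.4% of the negative group's Birc5 counts, and without it the log2 ratio, with 0.5 count added to each side, was 4.25.

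Cdca8 (chr4:124918465-124939311, minus strand), or borealin, had 32.97, 421 and 1023 CPM as lowest, median and highest value of the E14.5 positive cells. The negative cells had 0, 0.320 and 339 CPM, and 5 of the 11 held at least 10 CPM, more than for any other member but Bub3. The summed levels of 587 and 48.5 CPM gave a log2 ratio of 3.60 (3.57 to 3.63), and 6.01 (5.93 to 6.08) without N24. A gene on the other strand covers 232 exon bases of Cdca8, or 4.48% of them.

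Set against exon length, the 10 genes spanned a wide range in E14.5 positive cells. Birc5 had 399 CPM per kb and Cdca8 113 CPM per kb in the summed counts. Bub3 followed with 55.1, Bub1 with 30.1, Incenp with 23.3, Aurkb with 20.5, Mad2l1 with 15.2, Ttk with 13.6 and Bub1b with 12.3 CPM per kb. Mad1l1 was last with 0.0520 CPM per kb. In the P5 positive cells Birc5 (272 CPM per kb) and Cdca8 (127) again came first and Mad1l1 (0.0268) last, while Bub1b had 53.8, Incenp 47.2, Aurkb 43.4, Bub3 32.2 and Bub1 32.2 CPM per kb. That order rests on pooled counts, and L2P8 holds 67.8% of those of Bub1b. By the median cell, Bub1b was at 16.0 CPM per kb, below Incenp (39.5), Aurkb (27.4), Bub1 (26.3) and Bub3 (24.1). Neighbours in these orders, from Bub3 down to Bub1b, had cell values that overlapped widely. Lengths are those of all annotated exons, which may be longer than the transcripts present. How reads were spread along the exons was not examined, so these orders may not rank the genes by transcript number.

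**Figure D2:**
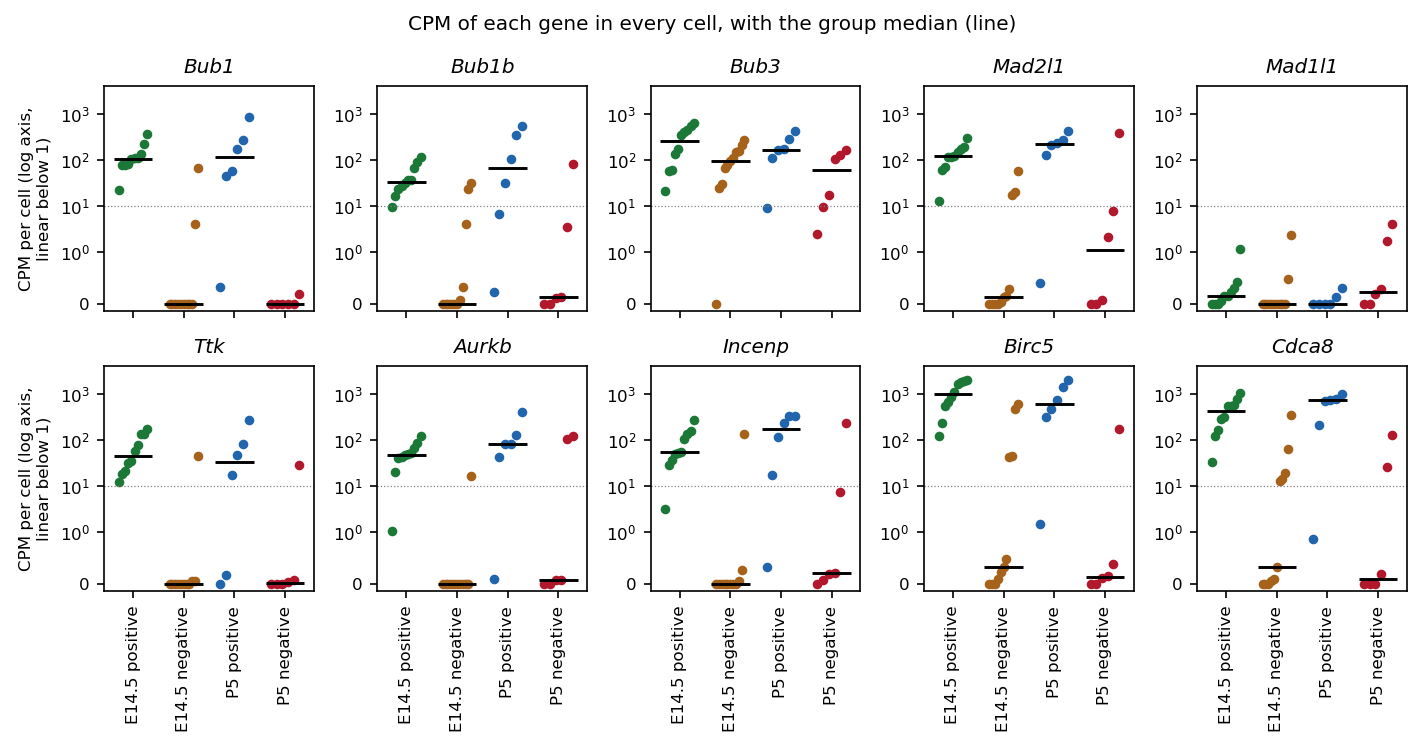
CPM of each gene in every cell of the 4 groups, on an axis that is logarithmic above 1 and linear below, with group medians as lines and a dotted line at 10 CPM. For Bub1 the median at E14.5 is 107 CPM among positive cells and 0 CPM among negative cells, whereas Bub3 has medians of 260 and 94.8 CPM there.

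The second comparison set the positive cells of the neonatal heart against those of the fetal heart. The 10 genes differed little as a group between the ages, with a median log2 ratio of P5 over E14.5 positive cells of 0.31, beside -0.39 over all 12262 rows. At least 2-fold higher at P5 were 3 of the 10 genes (Bub1b, Aurkb and Incenp), beside 30.3% of all rows. None of the 10 was at least 2-fold lower, beside 40.9% of all rows. Both counts changed when single cells were left out. Among the cardiomyocyte-led cells, which leaves out the endothelial-led P5 cell L2P12, the median turned to -0.16, and 3 genes passed 2-fold lower (Bub3, Birc5 and Mad1l1). Bub1b (2.36), Incenp (1.21) and Aurkb (1.08) stayed at least 2-fold higher there. Equal weights for cells gave 2 genes at least 2-fold higher and 1, Mad1l1, lower. The share of all rows past 2-fold is not given for these alternatives, so their counts have no background beside them. This comparison shares its E14.5 positive cells with the previous comparison and its P5 positive cells with the next.

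The P5 positive cells differed widely among themselves. In 5 of the 6, the 10 genes summed to 2051 to 4128 CPM. The sixth, L2P10, had cardiomyocyte markers at 63413 CPM and Tnnt2 at 4899 CPM, but its members summed to 13.05 CPM and none reached 10 CPM. Its 15 G2/M genes summed to 25.7 CPM and its 18 S phase genes to 192 CPM, both the lowest of the positive cells. Its label as reporter-positive was kept.

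The checkpoint genes had unlike ratios between the ages. Bub1b had a lowest, median and highest value of 0.239, 68.6 and 537 CPM in P5 positive cells and a summed level of 230 CPM, a log2 ratio of 2.13 (2.09 to 2.16) over E14.5. L2P8 alone held 67.8% of these counts, and without it the log2 ratio, with 0.5 count added, was 0.99. Bub1 was at 140 CPM in the summed counts, a log2 ratio of 0.09 (0.06 to 0.13), although L1P5 had 872 CPM and the other P5 positive cells 0.318 to 265 CPM. Mad2l1 was at 190 CPM, a log2 ratio of 0.57 (0.54 to 0.60), and its values in the 5 cells other than L2P10 were 128 to 423 CPM.

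Ttk was more uneven among P5 positive cells than at E14.5. It had no read in L1P5, the shallowest cell, and 264 CPM in L2P12, which held 69.8% of the group's counts. The log2 ratio was 0.46 (0.42 to 0.51), and without L2P12 it turned to -0.86 with 0.5 count added. Bub3 had 9.15, 169 and 426 CPM as lowest, median and highest P5 positive value, and a log2 ratio of -0.77 (-0.80 to -0.75), or -1.26 without L2P12. Mad1l1 had 9 reads in the 6 cells, 7 of the 9 or 77.8% in L2P12, and its log2 ratio of -0.96 had an interval of -2.22 to 0.15. It was -2.72 (-5.83 to -0.75) without L2P12, where 2 reads remained, and -0.32 without the E14.5 cell G10. Without G27 or G28 it was past 2-fold lower, at -1.26 and -1.196.

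In the passenger complex, the kinase and its scaffold were just past 2-fold higher at P5 and survivin was not. Aurkb reached 128 CPM in the summed counts, a log2 ratio of 1.08 (1.04 to 1.12). L2P3, at 391 CPM, held 50.7% of these counts, and without it the log2 ratio, with 0.5 count added, was 0.32. It was 0.99 without G5. Incenp reached 204 CPM, a log2 ratio of 1.02 (0.99 to 1.05), with cell values of 0.318, 171 and 328 CPM as lowest, median and highest. Weighting every cell equally brought Incenp to 0.92, just under 2-fold. Leaving out any 1 of 9 cells (L2P3, L2P7, L2P8, G2, G5, G6, G8, G10 or G27) also brought it under 2-fold, to 0.63 without L2P8. Cdca8 was at 657 CPM, a log2 ratio of 0.16 (0.15 to 0.18), and 5 of the 6 cells lay between 211 and 973 CPM. Birc5 was at 927 CPM, a log2 ratio of -0.55 (-0.56 to -0.54), with 1.51, 602 and 1931 CPM as lowest, median and highest cell value. Without L2P12, which held 50.9% of the counts, it was -1.17, past 2-fold lower. Leaving out both L2P10 and L2P12, an alternative chosen after the data were seen, gave a median log2 ratio of 0.13 for the 10 genes. That of all rows was then -0.96.

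**Figure D3:**
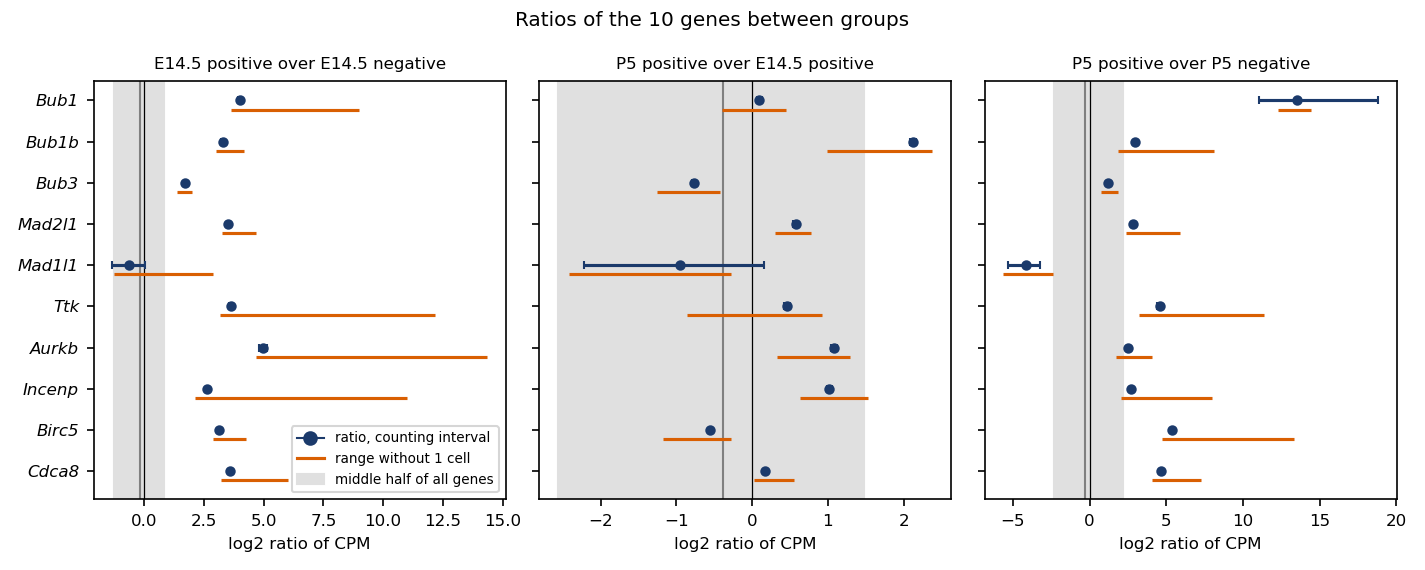
Log2 ratios of summed CPM for the 10 genes in 3 comparisons (points, with counting intervals as blue bars), the range when any 1 cell is left out (orange), and the middle 50% (grey band) and median (grey line) of all gene rows. In the left and right panels 9 of the 10 points lie above 1 and Mad1l1 lies below 0; in the middle panel the points lie between -0.96 and 2.13.

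The last comparison set positive against negative cells after birth. Here 9 of the 10 genes passed 2-fold in favour of P5 positive cells, beside 34.2% of 11567 rows, and Mad1l1 was at least 2-fold lower. Bub3 lost that call when L2P12 or L2N10 was left out. The median log2 ratio was 2.91, beside -0.29 over all rows. Reporter state and cell type cannot be told apart in this comparison, since the 6 negative cells were led by markers of other cell types and 5 of the 6 positive cells by cardiomyocyte markers.

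Bub1 was the gene with the clearest separation. It had 1 read in the P5 negative cells, in L2N4 at 0.194 CPM, against 12905 in the positive cells, a log2 ratio of 13.50 (11.03 to 18.81). It was the only 1 of the 10 genes in which every P5 positive cell lay above every P5 negative cell, beside 1.43% of all rows. The margin was narrow, since L2P10 had 0.318 CPM, or 4 reads. Without L2N4 no read was left in the negative cells, and Bub1 was at least 3633-fold higher in the positive cells. Without L2N7 its log2 ratio was 12.90 (10.42 to 18.20).

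The other checkpoint genes each had a P5 negative cell with a high value. Bub1b was at 83.5 CPM in L2N7, which held 98.2% of the group's counts, and the log2 ratio was 2.98 (2.92 to 3.04). It was 8.16 without L2N7 and 1.84 without L2P8. Mad2l1 was at 378 CPM in L2N4, above 5 of the 6 positive cells, and the log2 ratio was 2.84 (2.78 to 2.91), or 5.88 without L2N4. L2N4 had the fewest detected genes of all cells, 2994. With DESeq2 size factors in place of plain totals the Mad2l1 value fell to 0.81, under 2-fold, and with cells thinned to equal depth, which leaves L2N4 out, it was 5.84. Ttk was at 29.1 CPM in L2N9 and at most 0.0691 CPM in the other negative cells, and the log2 ratio was 4.58 (4.41 to 4.74). Without L2N9 only 2 reads remained there and it was 11.70 (9.85 to 14.75), and it was 3.25 without L2P12 and 3.98 without L2N7.

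Bub3 and Mad1l1 stood apart again. Bub3 had 2.52, 60.6 and 164 CPM as lowest, median and highest P5 negative value and a log2 ratio of 1.20 (1.17 to 1.24), with 4 of the 6 negative cells at 10 CPM or more. The ratio was 1.83 without L2N7, and under 2-fold without L2P12 (0.72) or L2N10 (0.95). Mad1l1 had 146 reads in the negative cells, 80.1% of them in L2N7 at 4.12 CPM, against 9 in the positive cells. Its log2 ratio was -4.17 (-5.33 to -3.21), an 18.02-fold lower level in positive cells, and without L2N7 it was -2.39 with 0.5 count added. Without L2P12, 2 reads remained in the positive cells and it was -5.94 (-8.996 to -4.06).

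With all cells included, the highest ratios of the passenger genes were those of Birc5, at a log2 ratio of 5.35 (5.28 to 5.41), and Cdca8, at 4.67 (4.604 to 4.73). Birc5 reached 171 CPM in L2N9 and at most 0.388 CPM in the other P5 negative cells. Cdca8 reached 128 CPM in L2N10 and 26.1 CPM in L2N9. Incenp had a log2 ratio of 2.67 (2.61 to 2.73), and L2N9, at 236 CPM, held 97.8% of its negative counts. Aurkb had a log2 ratio of 2.51 (2.44 to 2.58), with 120 CPM in L2N9 and 104 CPM in L2N4. Single cells moved these 4 ratios as well. Without L2N9 they were 13.44 for Birc5, 7.98 for Incenp and 4.09 for Aurkb, and without L2N10 the value of Cdca8 was 7.29. Without L2N7, the deepest negative cell, they were 4.74 for Birc5, 4.06 for Cdca8, 2.07 for Incenp and 1.91 for Aurkb. Birc5 was at 4.72 without L2P12 and Aurkb at 1.75 without L2P3. L2N9 carried Bub3, Ttk and all 4 passenger genes at 10 CPM or more, without Bub1, which had no read.

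Leaving out L2P10, L2P12 and L2N9, an alternative chosen after the data were seen, raised the median log2 ratio to 4.62, beside -0.57 over all rows. In 4 of the 10 genes (Bub1, Incenp, Birc5 and Cdca8) every positive cell then lay above every negative cell, beside 5.01% of all rows.

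The negative cells thus held single members more often than the whole set. Besides Bub3, 4 of the 11 E14.5 negative cells had no member at 10 CPM, 3 had 1 member, 2 had 2, N8 had 3 and N24 had 8. Of the 6 P5 negative cells, 2 had none, 2 had 1, L2N4 had 2 (Mad2l1 and Aurkb) and L2N9 had 5. N3 had only 2 reads of Bub1b and none of the other 9 genes in 5.99 M counts. L2N4, by contrast, had the highest S phase sum of all 33 cells, 23267 CPM, with a G2/M sum of 13.2 CPM. It also had the fewest detected genes, 2994.

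**Figure D4:**
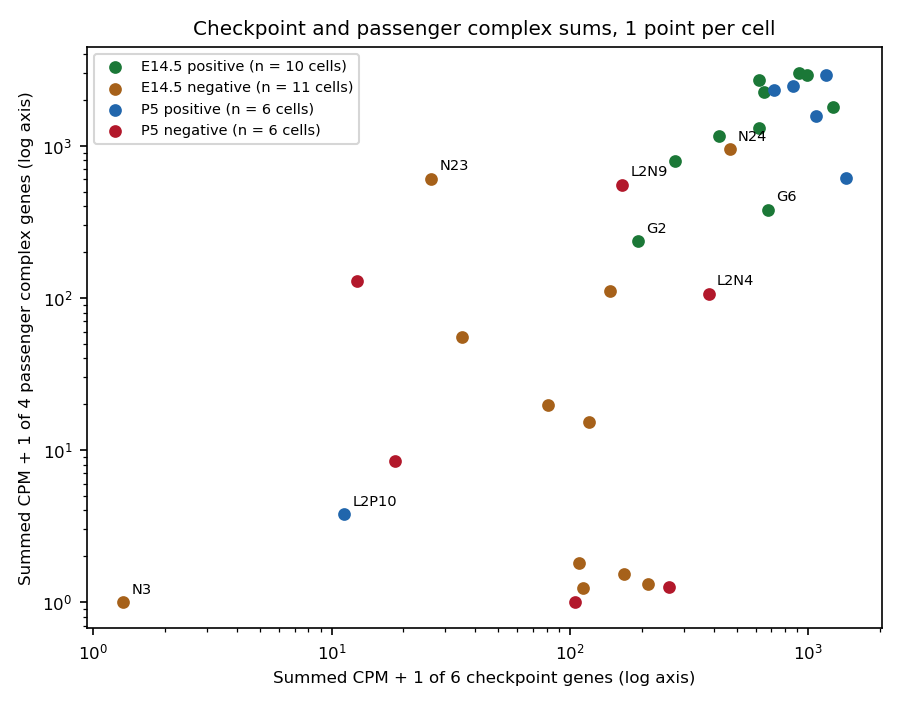
Summed CPM + 1 of the 6 checkpoint genes against that of the 4 passenger genes on log axes, 1 point per cell, coloured by group. N23, high in Birc5, lies above the other cells with a like checkpoint sum, 7 negative cells with passenger sums under 1 CPM lie along the bottom, and L2P10 lies among the negative cells.

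Checkpoint and passenger sums varied together over all cells, while within the E14.5 positive cells the r of the sums fell when Bub3 was left out. The Pearson r of the 2 sums on the log2(CPM + 1) scale was 0.64 over all 33 cells, and 0.74 with Bub3 left out of the checkpoint sum. Over the 16 positive cells of both ages it was 0.90, and 0.84 with Bub3 left out. Over the 10 E14.5 positive cells it was 0.72, but 0.19 with Bub3 left out. Single checkpoint genes differed in these 10 cells. Their r with Cdca8 was 0.97 for Bub3, 0.80 for Bub1b, 0.46 for Bub1, 0.24 for Ttk, -0.01 for Mad1l1 and -0.19 for Mad2l1. With Birc5 they were 0.95, 0.79, 0.32, 0.26, 0.08 and -0.39, in the same order. In the set of 16, L2P10 had checkpoint and passenger sums of 10.3 and 2.78 CPM, and the next lowest cell, G2, had 192 and 235 CPM. How far the 0.90 rests on L2P10 was not tested. The r values describe cells that share a library, its depth and the sort, and no test was made of them. Those over the E14.5 positive cells cannot be told apart from the difference between title ranges given below. The passenger genes made up 36.0 to 81.4% of the read counts of the 10 genes in E14.5 positive cells, with a median of 73.7%. In P5 positive cells they made up 21.3 to 76.5%, with a median of 65.4%.

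Each gene was also set against the mean of the other 9 over the 33 cells. Bub1 (r 0.90), Incenp (0.89), Ttk (0.88), Cdca8 (0.88) and Birc5 (0.87) followed the others most closely. Aurkb (0.82), Bub1b (0.81) and Mad2l1 (0.79) came next, then Bub3 (0.58), and Mad1l1 had an r of -0.16. Within the 10 E14.5 positive cells the order was different. Bub1b (0.87), Bub3 (0.84), Cdca8 (0.83) and Birc5 (0.79) followed the others, whereas Aurkb (0.02) and Mad2l1 (-0.16) did not. The closest pairs there were Bub3 and Cdca8 (0.97), Birc5 and Cdca8 (0.96), and Bub3 and Birc5 (0.95). The E14.5 positive cells titled G25 to G29 had 16.8 to 38.5 M counts and Bub3 at 398 to 639 CPM. Those titled G1 to G10 had 8.40 to 12.8 M counts and Bub3 at 21.1 to 345 CPM. All r values within these 10 cells cannot be told apart from this difference between title ranges.

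The 10-gene sum was high in cells with high G2/M sums, though the highest values of the pair fell in different cells. G25 and L1P5 had the highest G2/M sums, 13549 and 13505 CPM, with 10-gene sums of 3073 and 2051 CPM, while L2P12 and G28 had the highest 10-gene sums among the positive cells, 4128 and 3922 CPM. The 10-gene sum's r with the G2/M sum was 0.88 over 33 cells and 0.95 over the 10 E14.5 positive cells. With the S phase sum r was 0.49 over 33 cells and -0.52 over the 10. G6 and G5 mark the ends of this range. G6 had the highest S phase sum of the positive cells, 13246 CPM, with Mad2l1 at its highest (301 CPM) and Incenp at its lowest (3.23 CPM). G5 had the lowest S phase sum of the E14.5 positive cells, 493.3 CPM, with Birc5 at 1646 CPM and Aurkb at only 1.04 CPM. Depth moved with the sum as well, with r 0.76 between the 10-gene sum and the log2 total count in these 10 cells and 0.23 over all 33, and its part in the result was not tested.

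**Figure D5:**
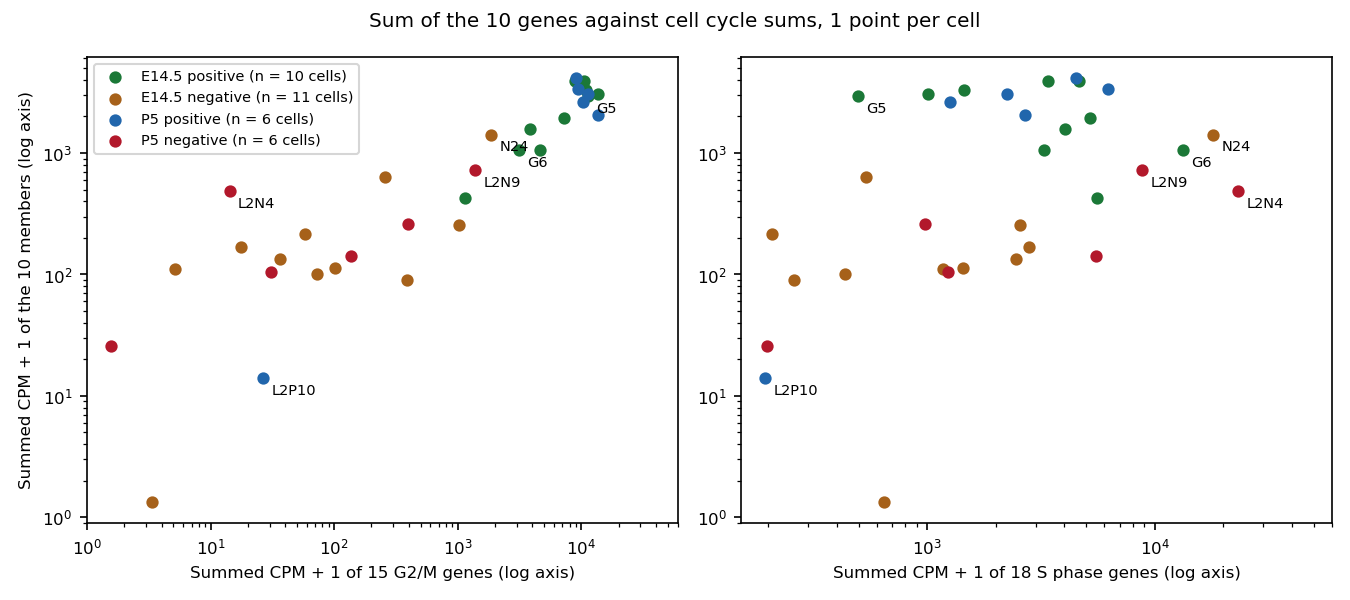
Summed CPM + 1 of the 10 genes against the sums of 15 G2/M genes (left) and 18 S phase genes (right) on log axes, 1 point per cell, coloured by group. The members climb with the G2/M sum (r 0.88 over 33 cells) and are spread widely at any S phase sum (r 0.49).

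The other genes of these pathways were read from 2 lists. Their ratios are pooled over all cells of a group, and none is given here with single cells left out. Of 17 checkpoint partners, which hold the kinetochore proteins and regulators that the members bind, 13 were at least 2-fold higher and 1 at least 2-fold lower in E14.5 positive than negative cells, with a median log2 ratio of 2.498. The share of all rows past 2-fold higher was 22.4%, and 4 of the 17 lay below 0. Knl1, the kinetochore scaffold that Bub3 binds, was at 51.3 CPM in positive cells and had no read in negative cells, at least 3342-fold higher. Cdc20, the activator that the checkpoint inhibits, had a log2 ratio of 7.52 (7.17 to 7.89). Lowest were Nup98, a nuclear pore protein, at -2.10 (-2.17 to -2.04), and Zw10, part of the kinetochore complex that recruits dynein, at -0.997 (-1.09 to -0.91).

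Of 17 passenger complex partners, 15 were at least 2-fold higher in E14.5 positive cells, beside the same 22.4% of all rows, and 0 were at least 2-fold lower, with a median of 4.98. Haspin, the kinase whose histone mark draws the complex to centromeres, was at 50.01 CPM in positive cells and had no read in negative cells, at least 3260-fold higher. Kif2c, the microtubule depolymerase that Aurkb regulates, had 1 read in the negative cells against 11761, a log2 ratio of 13.83 (11.35 to 19.13). Lowest were Nsun2, an RNA methyltransferase, at 0.10 (0.05 to 0.15), and Rcc2, at 0.74 (0.66 to 0.82). In 6 of the 17 every positive cell lay above every negative cell, beside 0.198% of all rows.

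Between the positive cells of the 2 ages the partners were mixed. The pooled P5 counts include the endothelial-led cell L2P12 and the cell L2P10, which was low in all members. Of the 17 checkpoint partners 2 were at least 2-fold higher at P5 and 5 at least 2-fold lower, beside 30.3% and 40.9% of all rows, with a median of 0.15 beside -0.39. Cdc20 had a log2 ratio of 2.42 (2.39 to 2.45) and the mitotic kinase gene Plk1 one of 1.78 (1.73 to 1.83). Trip13, the ATPase that takes the inhibitory complex apart, was at -2.18 (-2.21 to -2.15), and Spc25, a subunit of the NDC80 complex, at -1.68 (-1.69 to -1.66). Of the 17 passenger partners 6 were at least 2-fold higher and 2 at least 2-fold lower, beside the same shares, with a median of 0.36. The condensin subunit gene Ncapg was at 3.03 (2.96 to 3.10) and the spindle kinase gene Aurka at 1.94 (1.90 to 1.97). The nuclear export receptor gene Xpo1 was at -1.57 (-1.59 to -1.55) and Nsun2 at -1.55 (-1.64 to -1.45).

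Between P5 positive and negative cells, 14 of 17 checkpoint partners were at least 2-fold higher, beside 34.2% of all rows, and 2 at least 2-fold lower, with a median of 3.87. Mad2l1bp, which turns Mad2l1 back to its open form, had no read in the negative cells and was at least 1174-fold higher, and Spdl1 had a log2 ratio of 9.91 (8.55 to 11.79). Lowest were Nup98 at -1.43 (-1.57 to -1.29) and Rae1 at -1.14 (-1.21 to -1.08). Of the passenger partners 13 were at least 2-fold higher, beside the same 34.2%, and 1 at least 2-fold lower, with a median of 4.02 and 3 of the 17 below 0. The shugoshin genes Sgo1 and Sgo2a, whose products guard centromeric cohesion, had no read in the negative cells and were at least 3825-fold and 3588-fold higher. Nsun2 was at -2.08 (-2.18 to -1.98) and Rcc2 at -0.33 (-0.38 to -0.28).

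Among 7273 other genes, those most like the mean of the 10 members over the 33 cells were Top2a (r 0.98), Kif23 (0.97), Ckap2l (0.97), Nuf2 (0.96), Spc25 (0.95), Kif11 (0.95), Shcbp1 (0.95) and Nek2 (0.95). The likeness is Pearson's r of log2(CPM + 1). It is a description of cells that share a sort, and Top2a and Kif11 are also in the G2/M list.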

How the data were processed

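The authors deposited raw read counts per gene for 33 single cells, made with CASAVA 1.8.2, STAR 2.4.0j and HTSeq 0.6.1p1 on mm10, per the submitters' processing notes. Per the series' design text, mRNA was amplified as antisense RNA. The annotation, the strand setting and any use of molecular identifiers are not given in the sources used here. Amplified reads are not independent molecules, so all intervals and bounds cover counting error only.

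For each group, the counts of its cells were added up and expressed per 1000000 of their joint total (CPM). Differences are log2 ratios with exact binomial (Clopper-Pearson) intervals at 95%. List medians and list counts have 0.5 count added to each side, as do leave-one-out values where the text says so. Genes needed 10 counts over both groups. A difference of 2-fold was the call, without a test. A count of 0 was set to 3 counts over the group for bounds. The calculation was tested on simulated Poisson counts with the same rate in every cell of a group. Such counts do not model single cells that hold most of a group's counts. A cell was led by the marker list with the highest summed CPM.

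Alternatives were equal weights for cells, edgeR 4.0.16 TMM factors, DESeq2 1.42.0 size factors, totals without the 20 largest rows, thinning to 8671357 counts (6 shallower cells left out), subsets of cells, other count minimums and each cell left out. Exon lengths and coordinates are from GENCODE on GRCm38. Partners named are the 2 highest and 2 lowest ratios with at least 10 CPM in the higher group. Knl1, Haspin, Sgo1 and Sgo2a stand in the table under older symbols, and Aurkc was not analysed here. The members and lists were chosen with earlier results of these data known. Python 3.11.15, numpy 2.4.6, pandas 2.3.3, scipy 1.17.1 and R 4.3.3 were used.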

Additional observations from a re-analysis of the deposited data

Results flagged for a closer look

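Single cells that stood far from the rest of their group were looked for in 30 combinations of a member and a group of 6 or 10 cells, on the log2(CPM + 1) scale, and 12 were found. The rule flags about 1 in 20 groups by chance only where values are normally distributed. Several of these groups hold cells without a read, and a lone read is then always flagged, as for Bub1 in L2N4. Some cells, such as L2P10, were also flagged in more than 1 gene. The 12 flags therefore cannot be set against that rate, and whether they exceed chance was not tested. The 11 negative cells of E14.5 were too many for this rule and were not examined.

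The P5 positive cell L2P10 was far below the other positive cells in 4 genes. It had 9.15 CPM of Bub3 where the next cell had 109 CPM, 0.398 CPM of Mad2l1 (next 128 CPM), 1.51 CPM of Birc5 (next 308 CPM) and 0.875 CPM of Cdca8 (next 211 CPM). Among P5 negative cells, L2N9 was far above the others in Ttk, at 29.1 CPM where the next cell had 0.0691 CPM, and in Birc5, at 171 CPM (next 0.388 CPM). L2N4 stood out with 378 CPM of Mad2l1 (next 7.96 CPM) and with the only read of Bub1, at 0.194 CPM, which is 1 count. L2N7 stood out with 83.5 CPM of Bub1b (next 3.63 CPM).

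In E14.5 positive cells, G29 was low in Mad2l1, at 12.9 CPM where the next cell had 60.6 CPM. G5 was low in Aurkb, at 1.04 CPM (next 20.4 CPM). G10 was high in Mad1l1, at 1.19 CPM (next 0.415 CPM).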

How the results depend on the processing

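The median log2 ratio of the 10 genes stayed above 1 in the E14.5 comparison and in the P5 positive over negative comparison under every alternative run. At E14.5 it was 3.40, and it moved to 5.68 with the cells titled 1 to 10, to 5.35 without N24, and between 3.13 and 5.35 with each cell left out. Between P5 positive and negative cells it was 2.91, and it moved to 4.62 without L2P10, L2P12 and L2N9, to 3.67 with the passenger genes alone, and between 2.59 and 4.38 with each cell left out. Leaving out L2N9 gave the highest of these. Between the ages it was 0.31 and ran from -0.16 to 0.53 with each cell left out. The negative value came from leaving out L2P12, which also gives the cardiomyocyte-led cells. A version with cardiomyocyte-led cells only could not be made for P5 positive over negative cells, since 0 of 6 negative cells were such.

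DESeq2 size factors moved the median of all genes by -0.11 at E14.5 and by 0.35 between the ages, equal weights for cells moved it by -0.12 between the ages, and edgeR TMM factors moved it by 0.13 between the ages and by 0.14 between P5 positive and negative cells. Under the DESeq2 and TMM factors 9, 3 and 8 or 9 members were at least 2-fold higher, in that order. With cells titled 1 to 10, the values between the ages of Bub3 (0.71) and Birc5 (0.40) turned positive. Values of 10 or fewer counts, as for Mad1l1 in P5 positive cells, carry a large counting error. Why they are so low was not tested. No paired analysis was possible because the labels number cells and do not tie them to shared animals.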
